A study of Sus scrofa with 19 samples.

Results

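The comparison described here is the difference between the uterine horns of a gilt, taken in gilts that received hormones in 1 horn and set against the same difference in control gilts. It uses 18 of the 19 arrays of the series, which came from 9 of its 10 gilts (young female pigs, Sus scrofa, 8 months old). In 5 treated gilts (numbers 36, 38, 41, 44 and 47) a randomly chosen horn had been infused with prostaglandin E2 (PGE2, 200 µg per infusion) and estradiol (E2, 33.3 µg per infusion), and the opposite horn with placebo (5 mL saline with 1% ethanol). In 4 control gilts (numbers 9, 14, 28 and 46) both horns had been infused with placebo. Infusions were given at intervals of 4 h through 24 h on days 11 to 12 of the cycle, through cannulas placed on days 8 to 9, so the controls shared surgery, cannulas and vehicle with the treated gilts. RNA of endometrial tissue, the lining of the uterus, was hybridised to 1-colour Agilent arrays. The labels mark each horn with L or P, whose meaning they do not give. All 5 hormone horns used here were marked P and their placebo horns L, so the comparison subtracts the P minus L difference of control gilts from the hormone minus placebo difference of treated gilts. Gilt 40 has a hormone horn only, which is marked L, and gives no such difference.

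In a pregnant pig, the elongating conceptus releases estrogen toward the end of the luteal phase, and this signal, together with endometrial PGE2, protects the corpus luteum and prepares the uterine lining for attachment. PGE2 acts through receptors coupled to cyclic AMP and calcium, and E2 acts through nuclear estrogen receptors that change transcription. The horns of an animal share its circulation, and each has its own lumen into which the infusion was given.

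A level here is the log2 processed signal of a probe after the 75th percentile of its array, also in log2, was subtracted, and a horn difference is the difference of 2 such levels within a gilt. The 75th percentile was 594 to 978 over the arrays and was lowest in the hormone horn of gilt 36, whose horn differences also had the widest spread over probes (SD 0.772, against 0.286 to 0.555 in the other 8 gilts) and a median of 0.17. EPCAM, which marks epithelium, was well above background on all 19 arrays. Both horns of a gilt lay on 1 slide with the P array next after the L array, so horn mark and slide position cannot be told apart. Arrays were scanned on 3 days, which held gilts 36, 44 and 9, gilts 41, 14 and 28, and gilts 38, 47 and 46. On the L array of control gilt 28, 15 of 1133 blocks of neighbouring spots read more than 0.5 log2 units below the other arrays, the darkest by 2.89. Of the 241 probes more than 3 units low on that array, 205 lay in or beside those blocks and 9 carried an outlier mark. RGS4, S100A8, S100A12, SLC11A2 and PNPLA2 had their probe in or beside them, and LPAR3 and SLCO2A1 lay in or beside blocks reading away from the other arrays on the placebo array of gilt 47 (2 dark and 6 bright blocks), as did ACKR3 on its hormone array (1 dark and 3 bright).

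No probe passed the test of the difference between treated and control gilts (limma with the gilt as a block, Benjamini-Hochberg adjusted p under 0.05; 0 of 39064 probes, lowest adjusted p 0.28). At an unadjusted p under 0.05 there were 1462 probes (3.74%), 1103 above (2.82%) and 359 below (0.919%) control gilts. That split was 860 and 507 with quantile normalization, 503 and 287 with another background correction (normexp), and 797 and 467 in the authors' deposited value table. Among 3010 genes with a symbol, 135 (4.49%) were above and 27 (0.897%) below at that level. The horn differences of the 5 treated gilts lay above those of all 4 control gilts for 60 of 2962 genes (2.03%) and below all of them for 8 (0.27%). The genes described below are therefore reported by their values, and no call of a changed gene is made for this contrast. The median over all genes was 0.09, so a value near it is the ordinary position of a gene under this scaling. That position moved with the scaling. Over all probes the median was 0.05, but 0.00330 with quantile normalization, -0.0317 with normexp and 0.00529 in the authors' value table. Without gilt 36 it was 0.0137. The shares of all genes above or below 0 given below belong to the main scaling only.

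Horn differences of treated gilts had little in common over the whole array. Across probes, which are not independent, the correlation between treated gilts ran from -0.41 (gilts 36 and 38) to 0.51 (gilts 36 and 44), with a median of 0.06 over 10 pairs. Control gilts correlated with each other at -0.16 to 0.06 over 6 pairs. The mean horn difference of treated gilts correlated with that of control gilts at 0.15, and at 0.12 without gilt 36. Of the 2013 probes (5.21%) that were higher in the hormone horn of all 5 treated gilts, 135 were also higher in the P horn of all 4 control gilts and 92 were lower in all 4.

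Among the genes described here, the lowest unadjusted limma p-values belonged to genes of cell division (PBK 7.5e-05, CCNF 0.000101 and CCNB1 0.000124). Genes of other kinds were separate as well and are given below. Within treated gilts alone, 16 of 39064 probes passed (0.041%; limma, adjusted p under 0.05), all higher in the hormone horn. In all 16 the 5 treated gilts lay above the 4 control gilts, as they did for 514 of 38658 probes over the array. The 16 were picked by their treated differences, so this separation was close to given in advance and is not independent support. The 16 included probes of PBK, CCNF, CCNB1 and LPAR3 (for LPAR3 not the probe with the highest signal, which is described below), and the other 12 had no symbol here. The count of passing probes was 0 with array weights, with scan day as a term or without the block, and 0 to 12 when 1 gilt was left out. PBK encodes a kinase active in mitosis. Its horn difference was 1.36, 0.95, 0.98, 2.08 and 1.28 in treated gilts 36, 38, 41, 44 and 47, and -0.24, 0.01, -0.58 and 0.12 in control gilts 9, 14, 28 and 46. Every treated gilt exceeded every control gilt, with gilt 44 highest. The treated minus control difference was 1.50 ± 0.24 log2 units (SE; 2.84-fold, limma adjusted p 0.28; p 0.00794 in an exact two-sided permutation test over gilts, whose 126 splits allow none smaller), and all 4 PBK probes were above 0.

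CCNB1, cyclin B1, activates the kinase CDK1 at entry into mitosis. Its horn differences were 0.68, 0.87, 0.42, 0.93 and 0.96 in treated gilts and 0.00, -0.14, -0.19 and 0.01 in control gilts, in the same gilt order, so the groups did not overlap. CDK1 itself gave 0.78, 1.11, 0.86, 2.19 and 1.02 against -0.52, 0.07, -0.76 and 0.09, again with gilt 44 highest and no overlap. CCNF, cyclin F, gave 0.99, 0.90, 0.91, 1.21 and 0.86 against -0.19, -0.03, -0.35 and 0.42, with treated gilts close together (SD 0.14, n = 5). The treated minus control differences were 0.85 ± 0.15 for CCNB1, 1.47 ± 0.30 for CDK1 and 1.01 ± 0.17 for CCNF (SE; limma adjusted p 0.31, 0.46 and 0.28).

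TOP2A, the topoisomerase that untangles replicated DNA, differed by 1.40 ± 0.25 (SE), with 0.56 to 1.63 in treated gilts and -0.75 to 0.12 in controls. SPAG5, a spindle protein, differed by 1.31 ± 0.23, with 0.71 to 1.62 against -0.69 to 0.12. CDC20, which activates the anaphase-promoting complex, differed by 1.17 ± 0.24, with 0.62 to 1.15 against -0.98 to 0.05. For these genes too no treated gilt reached the control range (limma adjusted p 0.33, 0.33 and 0.46). BIRC5, the survivin gene of the chromosomal passenger complex, and CENPM, a kinetochore protein, showed the same separation at 0.72 and 0.87, as did NRM, a nuclear envelope protein, at 0.89. Over the alternative settings the difference ran from 0.41 to 1.31 for CDC20 and from 0.27 to 0.98 for NRM. CDKN1B, the cyclin-dependent kinase inhibitor p27, lay on the opposite side, with -0.55, -0.35, -0.12, -0.46 and -0.21 in treated gilts and 0.14, 0.07, 0.07 and 0.26 in controls, which also did not overlap (difference -0.47, limma adjusted p 0.89).

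Of the 14 measured members of a list of 50 cell division genes, 13 lay above 0 and 1 below, where 66.3% of all genes lay above. In 7 of them the unadjusted p was under 0.05 and treated and control gilts did not overlap: CCNB1, TOP2A, CDK1, CDC20, BIRC5, CCNB2 (cyclin B2, 1.20) and AURKB (aurora kinase B, 0.29). Over all genes 4.49% had such a p above 0, and 2.03% had treated gilts above all controls. The list's median was 0.47 (0.39 to 0.45 under 3 other scalings of the arrays), against 0.09 over all genes. Per gilt, the list's median horn difference was 0.33 to 0.61 among treated and -0.34 to 0.04 among control animals. Within scan days, each of which held gilts of both kinds, the median of the list's differences was 0.71, 0.58 and 0.50. The list was written with earlier results of these data known and is not independent evidence. In bulk tissue, more dividing cells and more of these transcripts per cell cannot be told apart, and this holds for all genes below.

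**Figure D1:**
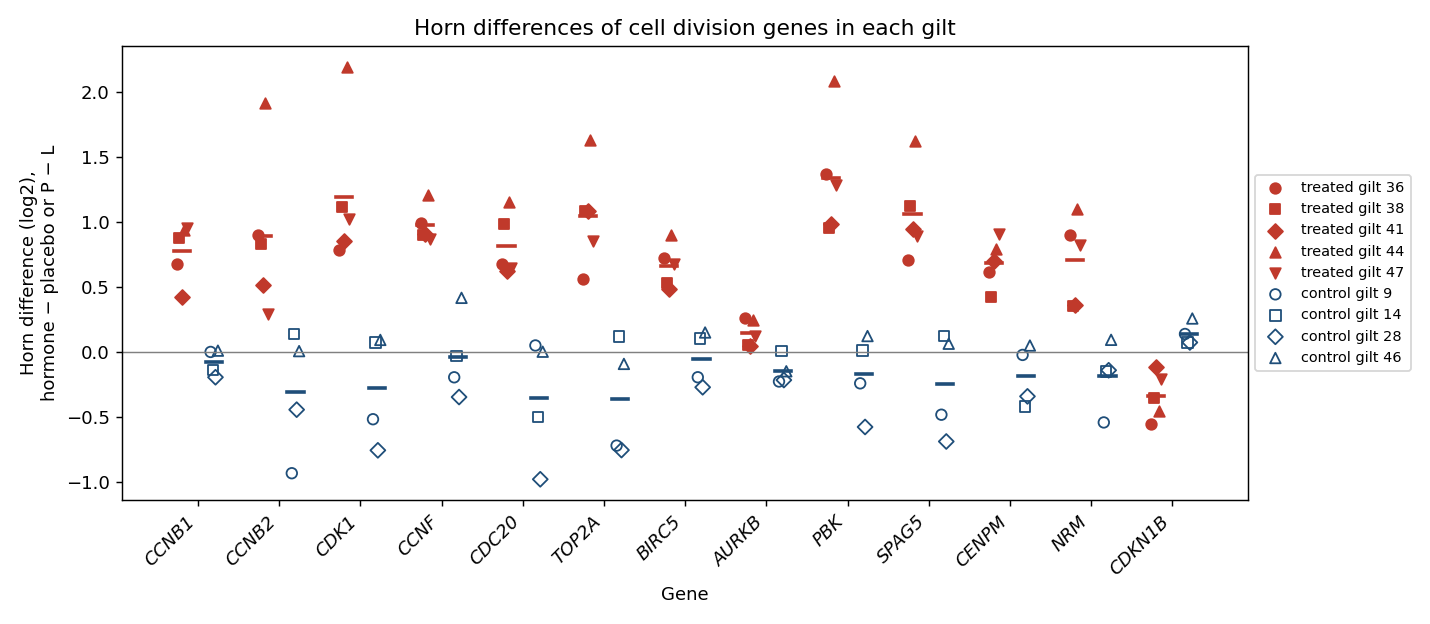
Horn difference (log2) of 13 genes of cell division in each gilt, hormone minus placebo horn in 5 treated gilts (filled) and P minus L in 4 control gilts (open); bars mark the group means. In all 13 genes the filled and open symbols do not overlap: treated gilts lie above controls in 12 and below in CDKN1B. The genes were chosen after their values were seen, so the lack of overlap reflects that choice. Measured members of the cell division list that did overlap are not drawn. Over all genes, treated gilts lay above all controls in 2.03% and below in 0.27%.

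Levels are shown for PBK, the gene with the largest difference in this group. For PBK, hormone horns lay at 0.07 to 1.35, placebo horns of the same gilts at -2.01 to 0.06, and the 8 control horns at -2.68 to -1.37. These 5 hormone horns were above all placebo horns, and 4 of the 5 placebo horns were above all control horns, with that of gilt 44 the exception. Most genes of the group did not share this. Apart from PBK and NRM, hormone horns overlapped the placebo horns in level, as for CCNB1 (-0.59 to 1.61 against -1.53 to 0.66) and CDK1 (0.01 to 2.18 against -2.18 to 1.16). Hormone horns also overlapped the control horns for CENPM (-1.89 to -0.72 against -1.78 to -1.21), AURKB and CDKN1B. The range of placebo horns overlapped that of control horns in every gene of the group.

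**Figure D2:**
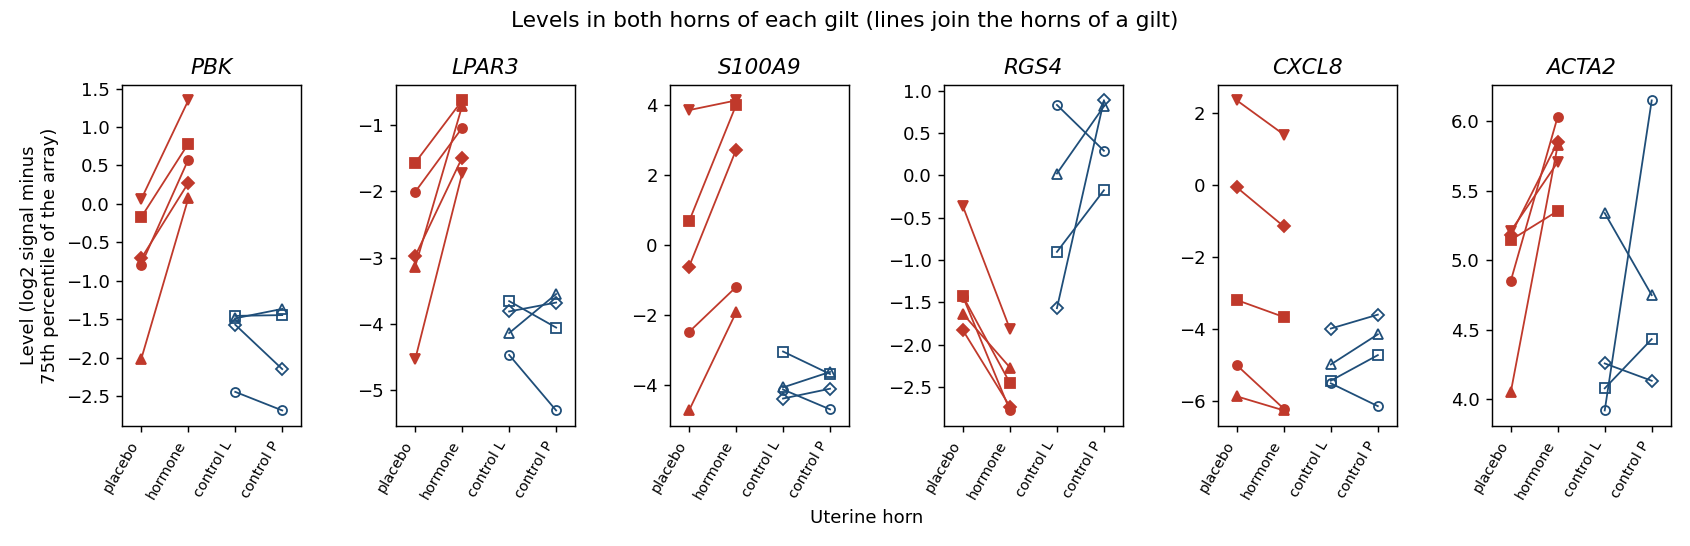
Levels (log2 signal minus the 75th percentile of the array) of 6 genes in each horn, with lines joining the horns of a gilt; filled symbols are 5 treated gilts and open symbols 4 control gilts, with the same symbol per gilt as in the plots of horn differences. PBK and LPAR3 lines go up in all treated gilts and RGS4 and CXCL8 lines go down, while ACTA2 goes up in all treated gilts and most steeply in control gilt 9.

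Genes of prostaglandin and lipid mediator handling included some of the higher differences. LPAR3 encodes a receptor for lysophosphatidic acid that is needed for embryo spacing and is known as an estrogen-responsive gene of the pig endometrium. Its horn differences were 0.97, 0.94, 1.49, 2.43 and 2.81 in treated gilts and -0.84, -0.40, 0.13 and 0.59 in controls. Gilts 44 and 47 were highest and no treated gilt reached the control range. The treated minus control difference was 1.86 ± 0.43 (SE; 3.62-fold; limma adjusted p 0.60; exact permutation p 0.00794), and 1.59 without the placebo value of gilt 47 in the stretch named above. The 3 LPAR3 probes ran from 1.15 to 1.86. PTGR1, which reduces 15-keto prostaglandins, gave 0.54, 1.19, 0.79, 1.67 and 0.18 against 0.07, 0.15, 0.02 and -0.00, a separation of 0.82 ± 0.26 with gilt 47 closest to the controls (limma adjusted p 0.98). AKR1B1, an aldose reductase with prostaglandin F synthase activity, gave 0.15, 1.42, 2.40, 0.92 and 0.58 against -0.67, 0.20, -0.28 and 0.54. Its groups overlapped through gilt 36, and the difference was 1.15 ± 0.42 (limma adjusted p 0.98).

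Of 16 measured genes of prostaglandin synthesis and metabolism (of 32 listed), 13 lay above 0 (66.3% of all genes did), and 4 of these had an unadjusted p under 0.05 (4.49% of all genes): PTGR1, AKR1B1, CBR1 (a carbonyl reductase of PGE2, 0.40) and SLCO2A1 (a prostaglandin transporter, 0.43). SLCO2A1 was 0.34, with an unadjusted limma p of 0.11, without its placebo value of gilt 47 in the stretch named above. CBR1 and SLCO2A1 were not above controls in each of the 3 scan days. The list's median was 0.33, and 0.29 to 0.31 under the other scalings, but within scan days it was 0.46, 0.41 and 0.02. Of the enzymes that make PGE2 from arachidonic acid, PTGS2 and PTGES were not among the higher genes, and the synthase PTGES2 could not be tested. PTGS2, the inducible cyclooxygenase, had horn differences of -0.12, -0.35, -1.48, -1.18 and -0.77 in treated gilts and -2.03, 0.60, 0.33 and -0.04 in controls (difference -0.50 ± 0.49). By this probe it was lower in the hormone horn of all 5 treated gilts, but control gilt 9 had the lowest value of all. The other of its 2 probes gave a larger difference of -1.58. PTGES, a PGE2 synthase, differed by -0.18 ± 0.24. The receptors that could be tested, PTGER3 for PGE2 and PTGFR for prostaglandin F2α, differed by -0.03 ± 0.16 and 0.06 ± 0.33, with signs that changed with the processing.

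Among genes known to respond to estrogen, 21 of 31 measured lay above 0, close to the share of all genes (66.3%), with a median of 0.14 (0.09 to 0.13 under the other scalings). Besides LPAR3, the list held SFRP4, a secreted Wnt modulator, with 0.63, 0.84, 0.78, 1.43 and 1.06 in treated gilts against 0.73, -0.12, -0.15 and -0.34. SFRP4 was above 0 in every treated gilt, and control gilt 9 alone reached their range (difference 0.92 ± 0.24, limma adjusted p 0.78). In level, its hormone horns lay at -1.07 to 0.48, placebo horns at -1.92 to -0.15 and control horns at -0.26 to 0.93. No hormone horn exceeded the highest control horn. IHH, Indian hedgehog of the uterine epithelium, gave 1.00, 0.97, 1.12, -0.32 and -0.16 against 0.15, -0.78, -0.60 and -0.95. Here gilts 36, 38 and 41 were high and gilts 44 and 47 lay among the controls (difference 1.07 ± 0.35). AREG, amphiregulin, a ligand of the epidermal growth factor receptor, went the other way, with -1.20, 0.29, -2.82, -2.18 and -0.59 against 0.60, 1.29, -0.51 and -0.16, and the groups overlapped (difference -1.61 ± 0.61). Its probe was well above background on 2 of 4 control L arrays and 3 of 4 control P arrays. The estrogen receptor ESR1 differed by 0.16 ± 0.16 and the progesterone receptor PGR by 0.30 ± 0.22. SPP1, osteopontin, an estrogen-induced adhesion protein of the pig uterus, gave 0.43, 0.61, -0.77, 0.70 and -0.07 against -0.20, 0.48, 0.16 and 1.98, so that the highest value belonged to a control gilt.

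HSD11B2, which inactivates cortisol, had small but separate horn differences of 0.49, 0.14, 0.28, 0.54 and 0.10 in treated gilts and -0.45, -0.09, 0.04 and -0.68 in controls. The difference of 0.61 ± 0.18 (limma adjusted p 0.98; exact permutation p 0.00794) came in equal measure from values above 0 in treated gilts and below 0 in controls (means 0.31 and -0.30). In the list of steroid conversion genes 11 of 13 measured lay above 0 (66.3% of all genes did), with a median of 0.16. It was 0.0676 with quantile normalization, 0.0346 with normexp, 0.05 with array weights and 0.0908 without gilt 36.

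Of the genes described here, S100A9 had the largest difference. S100A9, a calcium-binding alarmin of neutrophils and epithelium, gave 1.28, 3.32, 3.34, 2.80 and 0.28 in treated gilts against -0.57, -0.64, 0.28 and 0.44 in controls. Gilts 38, 41 and 44 were far above the controls, while gilt 47 lay within their range. The placebo horn of gilt 47 had a level of 3.85, against -4.74 to 0.67 in the other 4 placebo horns. The treated minus control difference was 2.32 ± 0.60 (5.01-fold; limma adjusted p 0.79; exact permutation p 0.0397). S100A8, its partner in calprotectin, followed the same gilts with 0.62, 3.20, 3.30, 3.05 and -0.13 against -0.25, -0.22, 0.49 and 0.46 (difference 1.89 ± 0.69), and S100A12 differed by 1.15 ± 0.61. DMBT1, a mucosal scavenger glycoprotein, was high in all treated gilts at 1.87, 2.28, 0.95, 1.65 and 1.09, against -1.86, 0.35, 1.16 and -0.63. Control gilt 28 lay inside the treated range (difference 1.81 ± 0.53, limma adjusted p 0.98, and 1.19 by the other of its 2 probes). SAA3, an acute-phase serum amyloid, differed by 0.88 ± 0.39.

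In the list of neutrophil markers, to which the S100 genes belong, 10 of 12 measured genes lay above 0 (66.3% of all genes did). It was 8 with normexp, in the authors' value table, without gilt 9 or without gilt 44. The list's median per gilt was -0.10 to 0.58 among treated gilts and -0.26 to 0.16 among controls. Its median difference was 0.25, but 0.14 without gilt 44, and 0.58, 0.36 and 0.09 within scan days. S100A9 and S100A8 alone had an unadjusted p under 0.05, both above 0 (4.49% of all genes did). What part neutrophils had in the S100 values was not tested. In the list of acute phase and antimicrobial genes 17 of 25 measured lay above 0 (66.3% of all genes did). The median was 0.13 (0.04 to 0.12 under the other scalings, 0.03 without gilt 9 and 0.26 without gilt 47), and at an unadjusted p under 0.05 it held 4 genes above and 1 below, against 4.49% and 0.897% of all genes. The 1 below was DEFB1. DEFB1, an epithelial β-defensin, gave -0.57, -2.73, -1.30, -2.22 and -0.64 against -0.98, 0.25, -0.73 and 0.62, below 0 in all treated gilts but overlapping with control gilts 9 and 28 (difference -1.28 ± 0.49, and -0.62 by the other of its 2 probes).

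**Figure D3:**
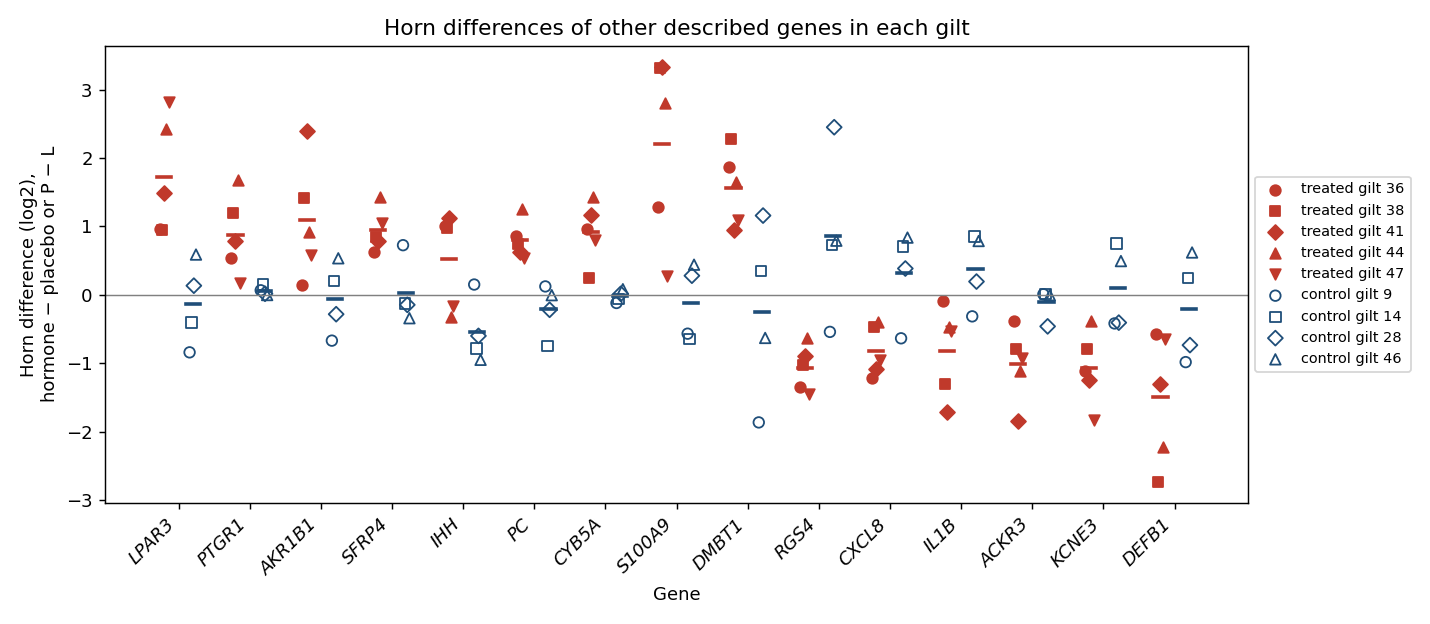
Horn difference (log2) of 15 further genes in each gilt, hormone minus placebo horn in 5 treated gilts (filled) and P minus L in 4 control gilts (open); bars mark the group means. S100A9 is 2.80 or more in 3 treated gilts, LPAR3, PTGR1, PC and CYB5A are separate from controls throughout, and RGS4 is separate on the lower side. These genes too were chosen after their values were seen, so the lack of overlap reflects that choice. Over all genes, treated gilts lay above all controls in 2.03% and below in 0.27%.

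Of the genes described on the lower side, RGS4 had the largest difference. RGS4, a regulator that shortens signalling by G proteins coupled to calcium, gave -1.34, -1.02, -0.90, -0.63 and -1.45 in treated gilts and -0.54, 0.73, 2.45 and 0.79 in controls. All treated gilts were below all controls, by a small margin for gilts 44 and 9. The difference was -1.93 ± 0.47 (limma adjusted p 0.71; exact permutation p 0.00794). It was -1.40 without gilt 28, whose high value rests on the L array with the dark blocks. Of 18 measured regulators of G protein signalling, 9 lay above and 9 below 0, with a median of 0.01, and RGS4 alone had an unadjusted p under 0.05. CXCL8, the chemokine interleukin-8 that draws neutrophils, gave -1.21, -0.47, -1.08, -0.39 and -0.95 against -0.63, 0.71, 0.39 and 0.84. It was lower in the hormone horn of all treated gilts and higher in the P horn of 3 of 4 controls (difference -1.15 ± 0.31, limma adjusted p 0.84). IL1B, interleukin-1β, gave -0.09, -1.30, -1.71, -0.46 and -0.53 against -0.31, 0.86, 0.20 and 0.79 (difference -1.20 ± 0.35), and gilt 36 lay above control gilt 9. Within scan day 1, which held gilts 36, 44 and 9, the difference was 0.04 for IL1B and -0.17 for CXCL8, against -1.55 or lower for both genes on the other days. CXCL8 levels were -6.27 to 1.39 in hormone, -5.88 to 2.34 in placebo and -6.15 to -3.61 in control horns. IL1B levels were -3.86 to 3.15, -3.67 to 3.69 and -4.61 to -2.35. For both genes, both horns of gilts 41 and 47 lay above all control horns, and no horn of gilts 36 and 44 did.

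ACKR3, a scavenging receptor for chemokine CXCL12, gave -0.38, -0.80, -1.85, -1.11 and -0.92 against 0.01, 0.02, -0.46 and -0.00. Only control gilt 28 reached the treated range (difference -0.90 ± 0.26, limma adjusted p 0.98). CD80, a costimulatory molecule of antigen-presenting cells, was separate at -0.63 by 1 of its 2 probes, the other giving -0.03, with -0.78 to 0.03 in treated gilts and 0.09 to 0.52 in controls. In the list of cytokines and chemokines 33 of 50 measured members lay below 0, with a median of -0.12 (-0.16 to -0.11 under the other scalings), where over all genes 33.7% lay below 0. Within scan days the median was 0.25, -0.36 and -0.10, and it was -0.0511 without gilt 38 and -0.0593 without gilt 47. Of its members 2 had an unadjusted p under 0.05, both below.

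Genes that respond to cyclic AMP did not lie higher in hormone horns. Of 19 measured, 13 lay below 0 (33.7% of all genes did), the median was -0.10 (-0.15 to -0.11 under the other scalings, -0.22 without gilt 38), and AREG alone had an unadjusted p under 0.05. FOS, an immediate early transcription factor, gave -1.16, 1.16, -2.49, -2.23 and -0.78 in treated gilts and -1.64, 0.63, -0.07 and -0.03 in controls, a range too wide to separate the groups (difference -0.83 ± 0.69). NR4A2, another immediate early gene, differed by -0.55 ± 0.47.

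Several genes outside these groups were also separate, and were picked after their values were seen. Treated gilts lay above all controls in 2.03% of all genes and below in 0.27%. PC, pyruvate carboxylase, gave 0.86, 0.75, 0.63, 1.25 and 0.54 in treated gilts and 0.12, -0.75, -0.22 and -0.00 in controls (difference 1.02 ± 0.21, limma adjusted p 0.46, and 0.53 by the other of its 2 probes). CYB5A, the cytochrome b5 that supplies electrons to steroid and lipid enzymes, gave 0.97, 0.24, 1.17, 1.44 and 0.81 against -0.12, -0.06, 0.02 and 0.08. Its controls were close to 0 throughout (SD 0.09, n = 4), and all 6 probes had the same sign (difference 0.94 ± 0.21, limma adjusted p 0.59). TAC3, which encodes neurokinin B, differed by 0.89 ± 0.22, and RAMP1, a subunit of receptors for calcitonin gene-related peptide, by 1.03 ± 0.26. Both were separate, with treated gilts at 0.40 to 1.49 and at 0.46 to 1.46. CLDN10, a tight junction protein that forms ion pores, differed by 1.01 ± 0.24 with gilt 38 at 0.30 just under control gilt 9 at 0.31. On the lower side, KCNE3, a potassium channel subunit, gave -1.12, -0.80, -1.24, -0.38 and -1.83 against -0.42, 0.75, -0.41 and 0.49 (difference -1.18 ± 0.33; 3 of 4 probes below 0). It was not separate, as treated gilt 44 lay just above control gilts 9 and 28. ATP2B1, a plasma membrane calcium pump, was separate by a small difference of -0.35 ± 0.14.

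For some genes the control gilts carried the difference. CPNE1, copine 1, gave -0.32, -0.45, -0.26 and -0.23 in controls and 0.11, 0.16, 0.29, 0.38 and 0.13 in treated gilts, so the P horn was lower without hormone and the hormone horn slightly higher (difference 0.53 ± 0.12, limma adjusted p 0.60). SLC11A2, a divalent metal transporter, differed by 0.55 ± 0.16 from means of -0.35 in controls and 0.20 in treated gilts. PNPLA2, a triglyceride lipase, was lower in the P horn of all 4 controls (mean -0.45) and closer to 0 in treated gilts (mean -0.11). No probe passed for the horn difference of control gilts (0 of 39064; 826 at an unadjusted p under 0.05, or 2.11%; limma). BAALC, a membrane-associated protein, shows the reverse case: it was lower in the hormone horn of all 5 treated gilts, at -1.31, -1.33, -2.11, -1.56 and -0.38, but control gilts 9 and 28 gave -2.03 and -0.99. After subtraction its difference was -0.78 ± 0.51.

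Markers of smooth muscle, which belongs to the muscle layer beneath the endometrium and to vessel walls, varied more between horns than any other marker list and did so in controls as well. Their median horn difference over 9 measured genes was 1.30, 0.24, 0.67, 1.46 and 0.43 in treated gilts and 3.12, 0.76, -0.10 and -0.69 in controls. ACTA2, smooth muscle actin, gave 1.18, 0.21, 0.67, 1.78 and 0.50 against 2.23, 0.35, -0.12 and -0.59. All 5 treated gilts had more of it in the hormone horn, but the steepest change belonged to control gilt 9, and the treated minus control difference was 0.40 ± 0.52. The list's median over both kinds of gilt was thus nearly equal, 0.79 in treated and 0.78 in control gilts, with a median difference of 0.07. That median turned on single gilts: it was 0.75 without gilt 9, with 9 of 9 genes above 0, and -0.47 without gilt 46, with 8 of 9 below. It was -0.19 without gilt 28, -0.07 without gilt 44, -0.04 without gilt 36 and 0.35 with array weights, and within scan days it was -1.70, 0.29 and 0.94. Stromal fibroblast markers were also highest in gilts 44 (0.94) and 9 (0.62). COL8A1 and COL5A1, collagen chains of vessel and fibrillar matrix, gave 0.07 to 2.51 and -0.04 to 1.43 in treated gilts, and gilt 9 reached 1.69 and 0.46 (differences 1.40 ± 0.57 and 0.65 ± 0.27). What part smooth muscle or stroma had in these values was not tested.

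Among the other marker lists, epithelial markers had a median difference of 0.16 (0.0231 without gilt 9) and were lowest in gilt 9 (-0.71). Endothelial markers had 0.13, but 0.00696 without gilt 44, 0.0237 without gilt 36 and -0.0464 with array weights. T and natural killer cell markers had -0.01 and macrophage and dendritic cell markers -0.03, both with a sign that changed when single gilts were left out. None of their measured members passed, and at an unadjusted p under 0.05 CD80 was the only one in these 4 lists. Cytosolic ribosomal protein genes lay above 0 in 29 of 33 (66.3% of all genes did), with a median of 0.11 that was 0.04 to 0.10 under the other scalings and -0.00 without gilt 36. Within scan days that median was 0.21, 0.03 and -0.12. The 43 uterine secretory genes had a median of 0.18, which was 0.58 in scan day 1 and -0.07 and 0.05 in the others, and 0.0736 with array weights and 0.11 without gilt 44.

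**Figure D4:**
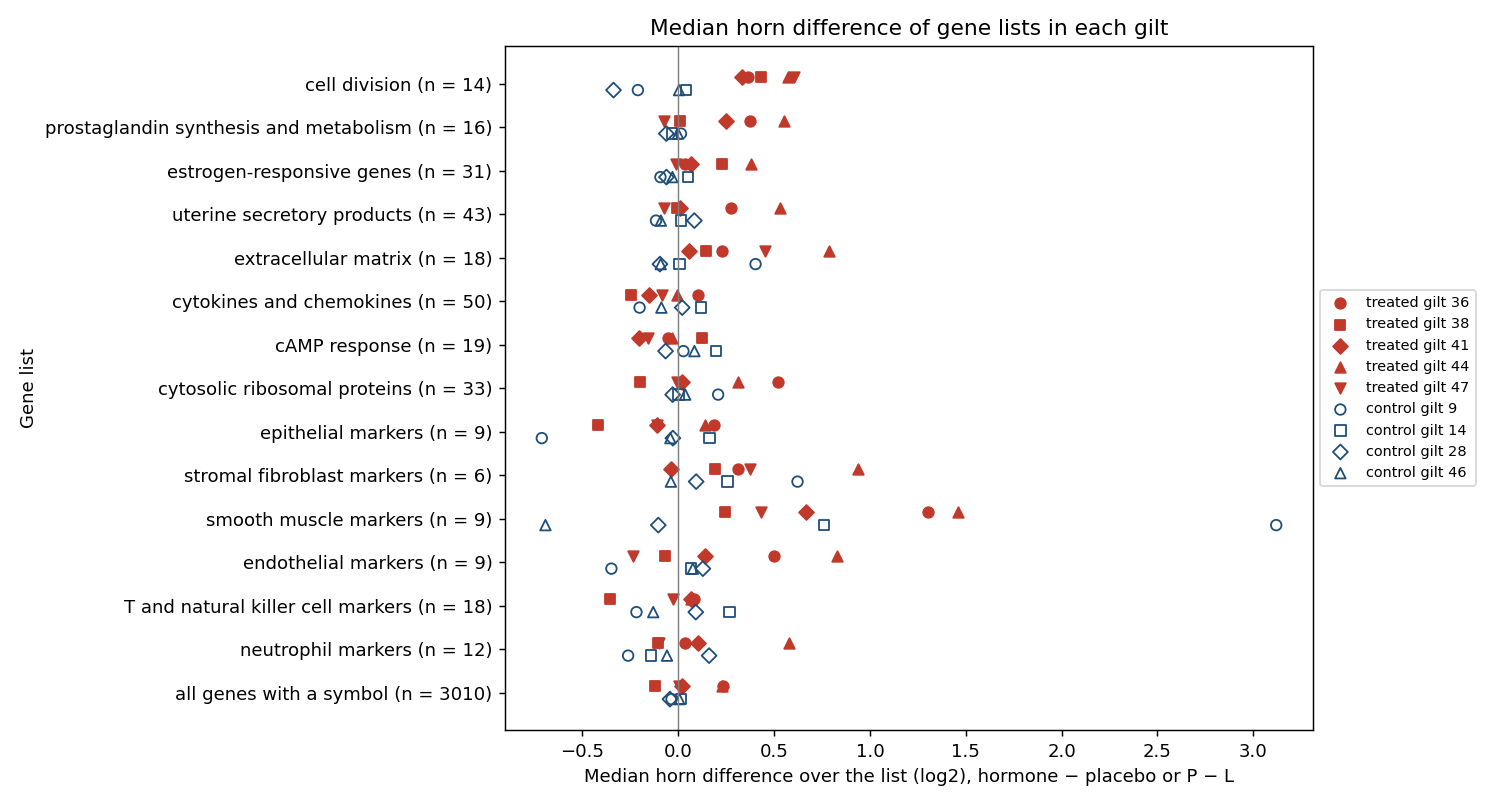
Median horn difference (log2) over the measured genes of 14 lists and of all genes with a symbol, in each of 5 treated gilts (filled) and 4 control gilts (open). The cell division list is the one in which all treated gilts (0.33 to 0.61) lie well above all controls (-0.34 to 0.04), and smooth muscle markers span -0.69 to 3.12 in controls.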

How the data were processed

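The deposited files of single arrays hold a processed intensity for each spot, written by Agilent Feature Extraction 10.7.3.1 per the file headers; the submitters' processing notes name version 9.1. The authors' deposited value table holds log2 values of the same arrays with the normalization not given in the sources used here; it served as an alternative. Control spots and outlier-marked values (822) were left out, spots of a probe were averaged, and log2 of the processed signal minus the 75th percentile was tested for 39064 of 43603 probes well above background on at least 4 of 19 arrays, with at least 2 horn differences in each kind of gilt. limma 3.58.1 (R 4.3.3; eBayes with trend, two-sided) fitted group and gilt, so that 5 horn differences were compared with 4. Horns pair because titles give the same gilt number; gilts are separate animals, and the correlation within a gilt was 0.52. Symbols came through RefSeq accessions (6876 probes matched 1 gene, 6768 with a symbol), and each gene used its probe with the highest mean signal. The script was tested on simulated data. The members and gene lists were chosen with earlier results of these data known. Genes named are the 15 lowest p-values on each side of the contrast, the 8 on each side in treated and in control gilts, up to 3 of each list, and listed genes of the study's subject, from which the described ones were taken after their values were seen; CCNB2 and AURKB were added as list members with a low p. Alternatives covered the block, scaling, background correction, filters, outlier marks, variance trend, scan day, array weights, each gilt left out, and, added after seeing the data, array stretches that read away from the other arrays. One gene named by this rule is not reported here, and genes not well above background on any array of a group were left out.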

Additional observations from a re-analysis of the deposited data

Results flagged for a closer look

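Among 112 sets of 4 or 5 horn differences of the described genes, 3 held a gilt far from the others of its kind by Dixon's criterion, where chance marks about 5% of sets. CDK1 was 2.19 in treated gilt 44, against 0.78 to 1.11 in the other treated gilts. ACKR3 was -0.46 in control gilt 28, against -0.00 to 0.02. CD80 was 0.52 in control gilt 9, against 0.09 to 0.15.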

How the results depend on the processing

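For the difference between treated and control gilts, 0 probes passed under every setting run. The count at an unadjusted p under 0.05 was 173 without the replicate block, 1202 and 1274 with a random block (18 and 19 arrays), 2489 with array weights, 1367 with quantile normalization, 790 with normexp, 953 without gilt 14 and 2505 without gilt 38. Of the 44 described genes with an unadjusted p under 0.05, 7 kept it without the block, 30 and 29 with a random block, and 32 whichever gilt was left out; none changed direction under any setting. For the horn difference of treated gilts the 16 probes became 0 with no replicate block, 0 and 1 with a random block (18 and 19 arrays), 51 with normexp, 30 in the authors' value table, 38 among probes well above background on all 18 arrays, and 0 with no filter on dim probes, without the variance trend, with scan day as a term or with array weights; leaving out 1 gilt gave 0 to 12 (10 without gilt 28, 12 without gilt 9, 6 without gilt 47 and 0 without any of the others). With array stretches left out it was 23, an alternative chosen after seeing the data. The control horn difference stayed at 0 passing probes. PTGER3 turned to 0.00364 with a random block over 19 arrays, 0.0425 with array weights, and ran from -0.11 to 0.11 with 1 gilt left out. PTGFR turned to -0.0291 with quantile normalization and -0.0620 with normexp, and ran from -0.15 to 0.25 with 1 gilt left out. SPP1 ran from -0.69 to 0.0336 with 1 gilt left out, the last without gilt 46. The cause of these changes was not tested. Signals near background limit AREG (15 of 19 arrays well above it), and to a lesser degree CCNB2 and BAALC (18 of 19 each). Over the alternative settings CCNB2 ran from 0.40 to 1.35 and CDC20 from 0.41 to 1.31. NRM ran from 0.27 to 0.98 and CD80 from -0.74 to -0.18. The cause of these wide ranges was not tested. The 5 against 4 gilts limit the precision of all values.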

Other observations

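Gilt 40 gave a hormone horn, marked L where the other hormone horns were marked P, and no horn difference. That horn had levels of -0.11 for PBK, -2.58 for LPAR3, -2.72 for RGS4 and 2.35 for S100A9. Its PBK level was below those of the 5 hormone horns (0.07 to 1.35) and above those of the 8 control horns (-2.68 to -1.37), and its LPAR3 level was below the hormone horns (-1.73 to -0.62) and above the control horns (-5.31 to -3.55). RGS4 lay within the hormone horns (-2.77 to -1.81). SPP1 was 6.51 in this horn, above the hormone horns (-0.32 to 5.05). DMBT1 was 2.16, against -0.72 to 2.05 in hormone horns, -1.67 to 0.52 in placebo horns and -6.13 to -2.48 in control horns.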
